A study of Mus musculus with 18 samples.

Results

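Transcripts of the replication-dependent histone genes were measured in wild-type and GCN2-deficient mouse embryonic stem cells deprived of arginine or leucine. Members were all genes of the deposited count tables whose GENCODE vM21 symbol starts with Hist1h, Hist2h, Hist3h or Hist4h, grouped by the histone they encode. This gave 70 members among 55471 genes, of which 6 were H1, 20 H2A, 19 H2B, 12 H3 and 13 H4 genes. On build GRCm38, 56 lie on chromosome 13, 10 on chromosome 3, 3 on chromosome 11 and 1 on chromosome 6, and 3 are annotated as pseudogenes.

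All libraries came from E14, an established mouse embryonic stem cell line kept on gelatin in serum-containing medium with leukaemia inhibitory factor (LIF). Wild-type cells (Wt) and Eif2ak4-/- cells (Gcn), which lack the amino acid sensing kinase GCN2, were held for 3 h in a defined SILAC medium with 5% dialyzed serum, LIF and lysine. The medium lacked arginine (Arg), lacked leucine (Leu) or contained all amino acids (Unstarved), and each of the 6 groups held 3 libraries made with poly(A) selection. How the Gcn line was derived, and whether replicates were separate cultures, is not given in the sources used here, so the p-values refer to the spread among these libraries, which may be technical.

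Core histones H2A, H2B, H3 and H4 form the nucleosome, and H1 binds the linker DNA between nucleosomes. In proliferating cells the genes of the histone clusters are expressed mainly in S phase, and their mRNAs typically end in a conserved stem-loop instead of a poly(A) tail. The stem-loop binding protein SLBP holds that structure while U7 snRNP directs cleavage just after it, and the rapid S phase of embryonic stem cells makes heavy use of this supply. Some cluster genes also produce polyadenylated transcripts that extend past the stem-loop.

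The 3' stem-loop is shown first because a poly(A)-selected library samples these genes according to how their transcripts end. The pattern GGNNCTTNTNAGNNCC, with all 6 stem pairs complementary, was searched on the sense strand of the vM21 transcripts of each gene. It was found in 46 of the 70 members and in 61 of 55450 genes overall. The following sites each show 5 flanking bases on either side, with the 16-base stem-loop in capitals.
Hist1h1c: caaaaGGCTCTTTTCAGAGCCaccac
Hist1h2ae: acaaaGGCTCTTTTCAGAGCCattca
Hist1h2bg: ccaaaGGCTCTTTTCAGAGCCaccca
Hist1h3g: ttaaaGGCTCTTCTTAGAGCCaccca
Hist1h4i: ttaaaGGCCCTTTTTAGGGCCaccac
Hist1h4j: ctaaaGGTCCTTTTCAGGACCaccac
The form of Hist1h1c, Hist1h2ae and Hist1h2bg was the commonest, with 26 members, and the form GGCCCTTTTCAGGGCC of H4 genes was next with 7 members. Hist1h4i and Hist2h4 carried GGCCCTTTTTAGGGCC, Hist1h4b and Hist1h4j carried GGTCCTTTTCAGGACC, and Hist1h3g had a form found in no other member. Among the 15 other genes with the pattern was H2afx, which encodes the variant H2A.X.

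Gene models differed in where they stop. In 23 members the model ended within 100 bases of the stem-loop, in 23 it ran further, and in 24 it held no stem-loop. A poly(A) signal (AATAAA or ATTAAA) lay in the last 50 bases of 2, 12 and 3 of these models, respectively. Some models without a stem-loop are shorter than the RefSeq gene, such as Hist1h4k (312 against 409 bases) and Hist1h2bl (381 against 473). Others are long, such as Hist2h2be with 2620 bases. A model without a stem-loop is therefore not evidence that the gene lacks it. The Hist1h1c model ran 840 bases past the stem-loop and that of Hist1h4i 330 bases, whereas the Hist1h3g model stopped 47 bases after it. A member's mean level, in counts per mega counts of the TMM-scaled library (CPM), was at least 1 in 3 of the 23 models ending at the stem-loop, 10 of the 23 running past it and 8 of the 24 without it. The medians of the 3 classes were 0.455, 0.904 and 0.602 CPM, or 0.863, 0.771 and 1.12 CPM per kb of the longest transcript. The order of the classes therefore depended on whether length was taken into account.

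**Figure D1:**
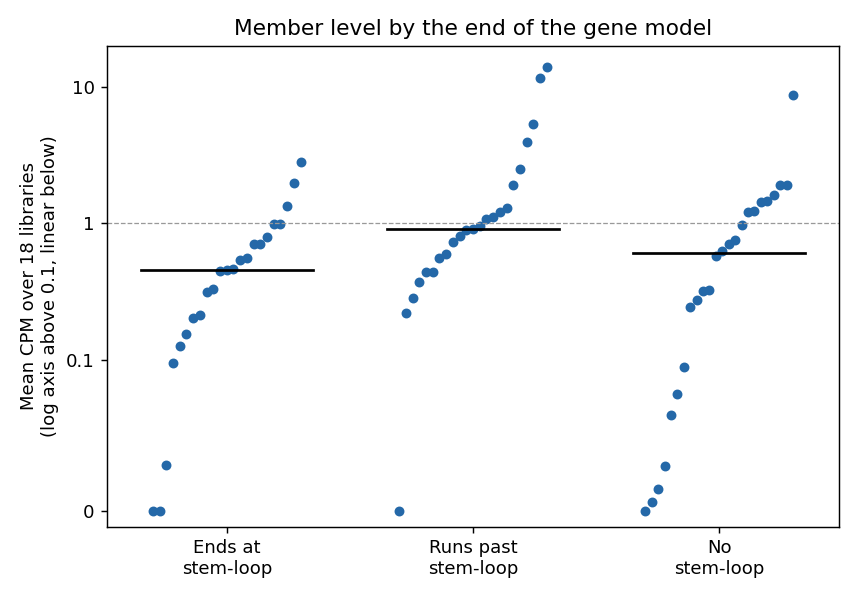
Mean CPM over the 18 libraries for each of the 70 members (points), by how the vM21 gene model ends; the vertical axis is logarithmic above 0.1 and linear below, black lines are class medians and the dashed line marks 1 CPM. The 2 highest members, Hist1h1c and Hist1h4i, have models that run past the stem-loop, and every class holds members near 0.

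Promoters are shown for 4 members that differ in type: 2 H1 genes that were called in several comparisons, an H2B gene and the H4 gene with the highest level. Windows run from 250 bases before to 50 bases after the start site in RefSeq (build GRCm38.p6), where 62 members were found. Capitals mark 4 motifs searched on both strands: the TATA box TATAAA, the CCAAT box, the H1 box AAACACA and the octamer core TTTGCAT.
Hist1h1c (chr13:23738557-23738856, plus strand): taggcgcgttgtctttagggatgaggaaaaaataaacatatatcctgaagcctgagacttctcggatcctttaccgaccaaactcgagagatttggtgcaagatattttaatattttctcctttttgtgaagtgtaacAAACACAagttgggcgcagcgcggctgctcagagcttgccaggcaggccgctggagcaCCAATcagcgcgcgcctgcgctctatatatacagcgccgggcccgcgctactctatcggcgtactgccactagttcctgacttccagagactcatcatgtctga
Hist1h1e (chr13:23622509-23622808, minus strand): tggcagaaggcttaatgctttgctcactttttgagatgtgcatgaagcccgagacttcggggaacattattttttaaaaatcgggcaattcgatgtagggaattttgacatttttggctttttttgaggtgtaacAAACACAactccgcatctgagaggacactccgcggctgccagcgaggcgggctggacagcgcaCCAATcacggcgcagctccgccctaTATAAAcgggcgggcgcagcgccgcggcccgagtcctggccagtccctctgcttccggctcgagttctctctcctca
Hist1h2bg (chr13:23571150-23571449, plus strand): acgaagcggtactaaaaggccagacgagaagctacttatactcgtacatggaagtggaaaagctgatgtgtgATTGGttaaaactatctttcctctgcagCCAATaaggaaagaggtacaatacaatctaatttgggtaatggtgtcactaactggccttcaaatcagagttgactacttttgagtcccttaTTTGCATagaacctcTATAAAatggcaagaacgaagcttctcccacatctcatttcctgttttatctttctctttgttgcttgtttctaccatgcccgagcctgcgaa
Hist1h4i (chr13:22041313-22041612, minus strand): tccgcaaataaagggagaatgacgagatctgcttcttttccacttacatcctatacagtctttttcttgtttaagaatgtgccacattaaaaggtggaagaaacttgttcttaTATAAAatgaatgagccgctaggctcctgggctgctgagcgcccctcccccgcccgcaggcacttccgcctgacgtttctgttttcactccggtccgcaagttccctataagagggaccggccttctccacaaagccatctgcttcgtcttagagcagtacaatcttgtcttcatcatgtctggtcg
The H1 box lay in 5 of 6 H1 promoters (all but Hist1h1a), in 2 of 18 H2A, 2 of 16 H2B, 0 of 10 H3 and 0 of 12 H4 promoters, against 7.18% of all 32851 RefSeq promoters. The octamer core, a known element of H2B promoters, lay in 7 of 16 H2B and 7 of 18 H2A windows, in 1 of 12 H4 windows and in 4.63% of all promoters. H2A and H2B genes often stand back to back, so their windows can cover the same bases. CCAAT was present in all 6 H1, 18 H2A, 16 H2B and 10 H3 windows but in 3 of 12 H4 windows, against 37.4% overall. TATAAA was present in 56.5% of members and 13.6% of all promoters. A match describes the letters of the window and is not evidence of binding.

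Most members are hard to tell apart by short reads. In 40 members more than 50% of the 43-base stretches of the transcript also occurred in another gene, against under 10% in 7 members, 5 of which were H1 genes (Hist1h1a, Hist1h1b, Hist1h1c, Hist1h1d and Hist1h1t). The share was 94.1% for Hist1h2af, 56.1% for Hist1h3g and 30.7% for Hist1h4i, so the level of a single core histone gene is uncertain. Hist1h1e shares exon sequence with the Hist1h2be model on its own strand, and the vM21 model of Hist1h1d spans 7425 bases. Exons of 23 members, including all 20 H2A genes, overlap a gene model on the opposite strand, and the strand setting of the counting is not given in the sources used here.

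Library totals ran from 14.8 to 38.8 M (mega) counts. Eif2ak4, which encodes GCN2, averaged 27.5 to 31.8 CPM in the Wt groups and 4.66 to 5.47 in the Gcn groups. The embryonic stem cell markers were expressed in every group (Pou5f1 at 1842 to 2583 CPM), while summed fibroblast markers averaged 19.5 to 23.8 CPM in Wt and 8.25 to 8.69 in Gcn groups. The 3 Gcn libraries numbered 1 stood apart from the other 6 on the second principal component. Gm42418, a gene model whose locus overlaps a ribosomal RNA unit, averaged 6342 CPM in Wt Unstarved (2266 to 12356) and 26842 CPM in Gcn Unstarved (15720 to 41709).

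Histone cluster transcripts were scarce in these poly(A)-selected libraries. 4 members had no count in any library, 12 had 1 to 100 counts in all 18 libraries together, and 54 had more than 100. Hist1h1c, which encodes the linker histone H1.2, was highest with a mean of 13.9 CPM, followed by the H4 gene Hist1h4i (11.7) and the H2B gene Hist1h2bc (8.80). The next were the H2A gene Hist1h2ae (5.34), the linker histone gene Hist1h1d (3.96) and the H3 gene Hist1h3g (2.84). The first 3 together held 38.2% of the summed CPM of all members, and 21 members reached 1 CPM. Per kb of transcript, Hist1h4i came first with 16.1 CPM per kb, ahead of Hist1h1c (8.93), Hist1h2bc (7.61), Hist1h2ae (7.58) and Hist1h3g (5.36). In the joint fit of both genotypes 18 members did not pass the filter on low counts and 52 were tested. The Wt fit tested 45 members and the Gcn fit 53. Members tested in none of these fits are covered by these counts alone. The members without a count, Hist2h2aa1, Hist2h3c1, Hist1h2bq and Hist1h4m, had 90.0 to 100% of their 43-base stretches shared with another gene. The share was 9.4% for Hist1h1c, 30.7% for Hist1h4i and 32.0% for Hist1h2bc. It was 94.1% for Hist1h2af, which ranked 9 by mean CPM. The part of shared sequence in these levels was not tested.

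Summed over the 70 members, the level was 48.6, 58.6 and 63.3 CPM in the 3 Wt Unstarved libraries, 81.5, 91.4 and 85.1 in Wt Arg, and 76.0, 80.9 and 69.8 in Wt Leu. In Gcn cells it was 96.8, 77.5 and 87.5 CPM unstarved, 115, 121 and 141 without arginine, and 90.4, 119 and 121 without leucine. Wt starved libraries thus all lay above the Wt Unstarved ones, Gcn Arg lay above Gcn Unstarved, and Gcn Leu overlapped it. Ratios of group means were 1.51 and 1.33 for arginine and leucine starvation in Wt, 1.44 and 1.26 in Gcn, and 1.54 for Gcn against Wt when unstarved. In these bulk libraries, a change in the number of cells expressing histone genes and a change in RNA per cell cannot be told apart.

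**Figure D2:**
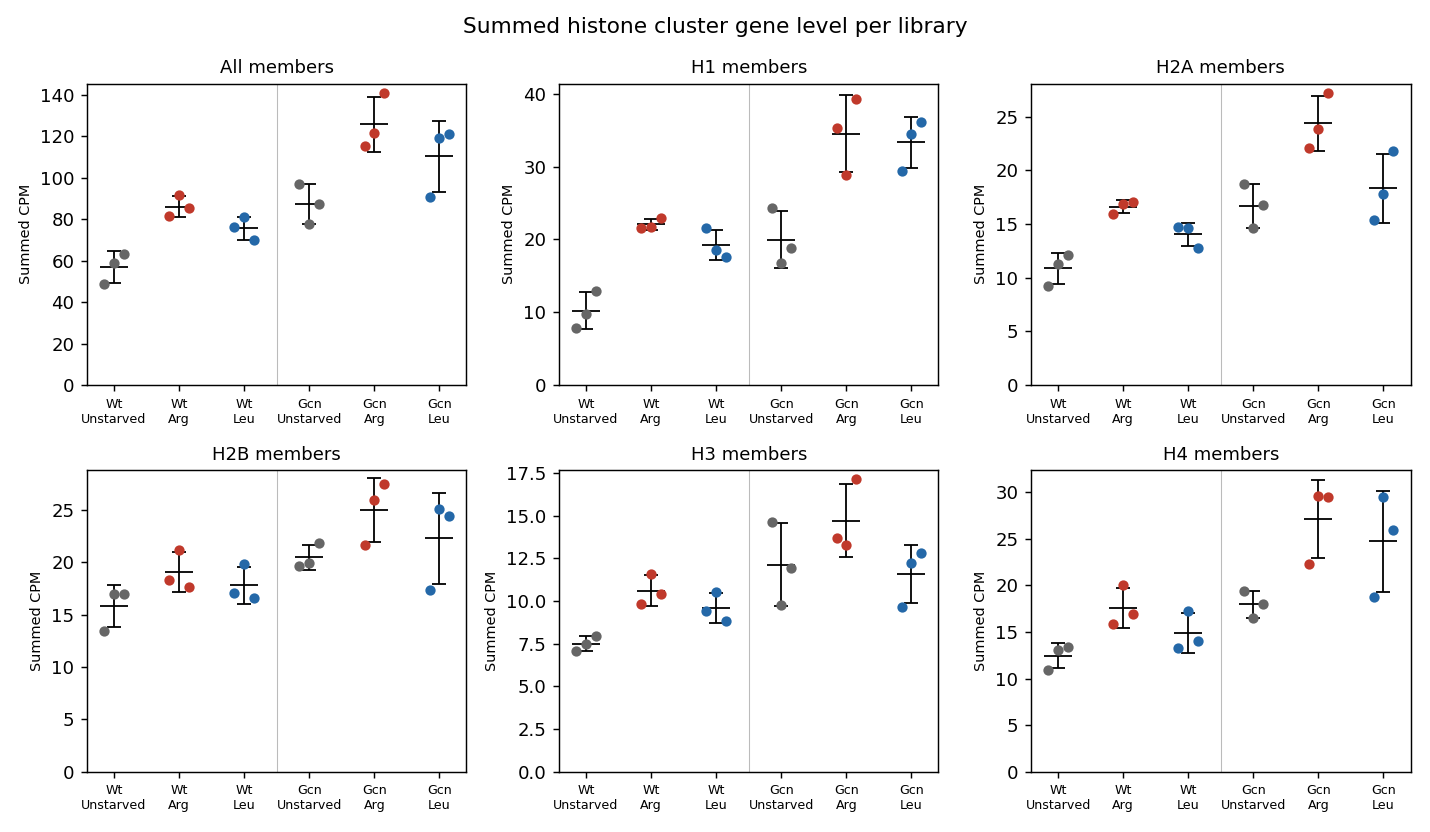
Summed CPM of all 70 members and of each histone type (vertical axes, starting at 0) in the 6 groups; coloured points are single libraries and black bars the mean ± SD (n = 3). The H1 sum has the widest spacing between Wt Unstarved (7.88 to 12.9 CPM) and Wt Arg (21.6 to 23.0 CPM).

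H1 transcripts moved most in the sums. The H1 sum averaged 10.2 ± 2.5 CPM in Wt Unstarved, 22.1 ± 0.77 in Wt Arg and 19.2 ± 2.0 in Wt Leu (SD, n = 3 each), ratios of 2.17 and 1.89. In Gcn cells it averaged 19.97 ± 3.9, 34.5 ± 5.3 and 33.3 ± 3.5 CPM, ratios of 1.73 and 1.67. The core histone sums had smaller ratios in Wt cells: 1.53 and 1.29 for H2A, 1.20 and 1.13 for H2B, 1.41 and 1.28 for H3, and 1.41 and 1.19 for H4. In Gcn cells they were 1.46 and 1.10 for H2A, 1.22 and 1.09 for H2B, 1.21 and 0.95 for H3, and 1.51 and 1.38 for H4. These ratios are descriptions, and differences between histone types were not tested.

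Arginine starvation of wild-type cells, set against the unstarved control as the series text proposes, raised linker histone genes and part of every core histone type. Of 45 members tested 16 rose and 0 fell (35.6%). Of all 16140 genes tested, 40.9% were called in either direction and 20.9% were called higher. Calls are adjusted p-values under 0.05 in edgeR's quasi-likelihood test. All 5 tested H1 genes rose, as did 3 of 12 H2A, 2 of 9 H2B, 3 of 10 H3 and 3 of 9 H4 genes. The DESeq2 test called 11 of the 16, with neither H2B gene among them. With all 18 libraries in one fit 13 were called, 12 of them among the 16. The median log2 fold change was 0.54 over the tested members and -0.01 over all genes. The 3 Arg libraries all lay above the 3 Unstarved ones in 20 members, which held for 25.5% of all genes. 29 of the tested members were above the filter in every Unstarved library and 13 of them rose. The other 16 passed only with the help of starved libraries, and of these Hist1h1b, Hist1h1e and Hist1h4k rose.

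Hist1h1c stood at 6.13, 7.71 and 8.61 CPM in Wt Unstarved and at 12.3, 13.8 and 13.4 in Wt Arg. The groups did not overlap, and the log2 fold change was 0.83 ± 0.12 (SE, adjusted p = 3.28e-05). Hist1h1b, which encodes the linker histone H1.5, rose from 0.302, 0.371 and 0.559 CPM to 0.953, 1.25 and 1.68 (log2 1.68 ± 0.33, adjusted p = 0.000547). Hist1h1e, encoding H1.4, rose from 0.201, 0.412 and 0.745 CPM to 2.29, 1.56 and 1.53 (log2 2.06 ± 0.39, adjusted p = 0.000628). Hist1h1d, encoding H1.3, rose by 2.03 ± 0.45 on the log2 scale and Hist1h1a, encoding H1.1, by 1.20 ± 0.29. None of the 5 tested H1 genes overlapped between these groups. Hist1h1t, the sixth, was too low to be tested and its libraries overlapped. The Hist1h1a call was lost with all 18 libraries in one fit (adjusted p = 0.11).

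Among core histone genes, Hist1h2af (H2A) rose from 0.503, 0.618 and 0.978 CPM to 2.15, 1.77 and 2.56, with a log2 fold change of 1.65 ± 0.25 (adjusted p = 4.88e-05). Hist1h4i, the main H4 gene here, went from 6.64, 7.92 and 8.19 CPM to 9.46, 11.6 and 10.2 (log2 0.47 ± 0.12, adjusted p = 0.00563). Both sets of libraries were apart. Hist1h3g, the main H3 gene here, rose from 2.08, 1.98 and 1.44 CPM to 2.54, 3.67 and 3.02 (log2 0.74 ± 0.22, adjusted p = 0.0114). The main H2A and H2B genes did not pass the test: Hist1h2ae had a log2 fold change of 0.33 ± 0.14 (adjusted p = 0.081) and Hist1h2bc one of 0.26 ± 0.16 (adjusted p = 0.227). Hist1h2ae stood at 3.55, 3.75 and 4.94 CPM in Wt Unstarved and 4.55, 5.14 and 5.50 in Wt Arg, and Hist1h2bc at 5.16, 7.67 and 6.89 against 6.81, 8.84 and 7.72, so that the libraries of both genes overlapped. The other genes that rose were Hist1h2ab, Hist1h2ak, Hist1h2bg, Hist2h2be, Hist1h3c, Hist1h3e, Hist1h4j and Hist1h4k. Leaving out 1 library cost the calls of Hist1h2ak (without Unstarved 2), Hist1h2bg (Unstarved 1 or Arg 2), Hist1h3g (Unstarved 3 or Arg 2), Hist1h3c and Hist2h2be (3 libraries each) and Hist1h3e (5 libraries), with adjusted p up to 0.146. The DESeq2 test lost Hist1h2ak, Hist1h2bg, Hist1h3c, Hist1h3e and Hist2h2be. With all 18 libraries in one fit Hist1h3c, Hist1h3e and Hist2h2be were not called.

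**Figure D3:**
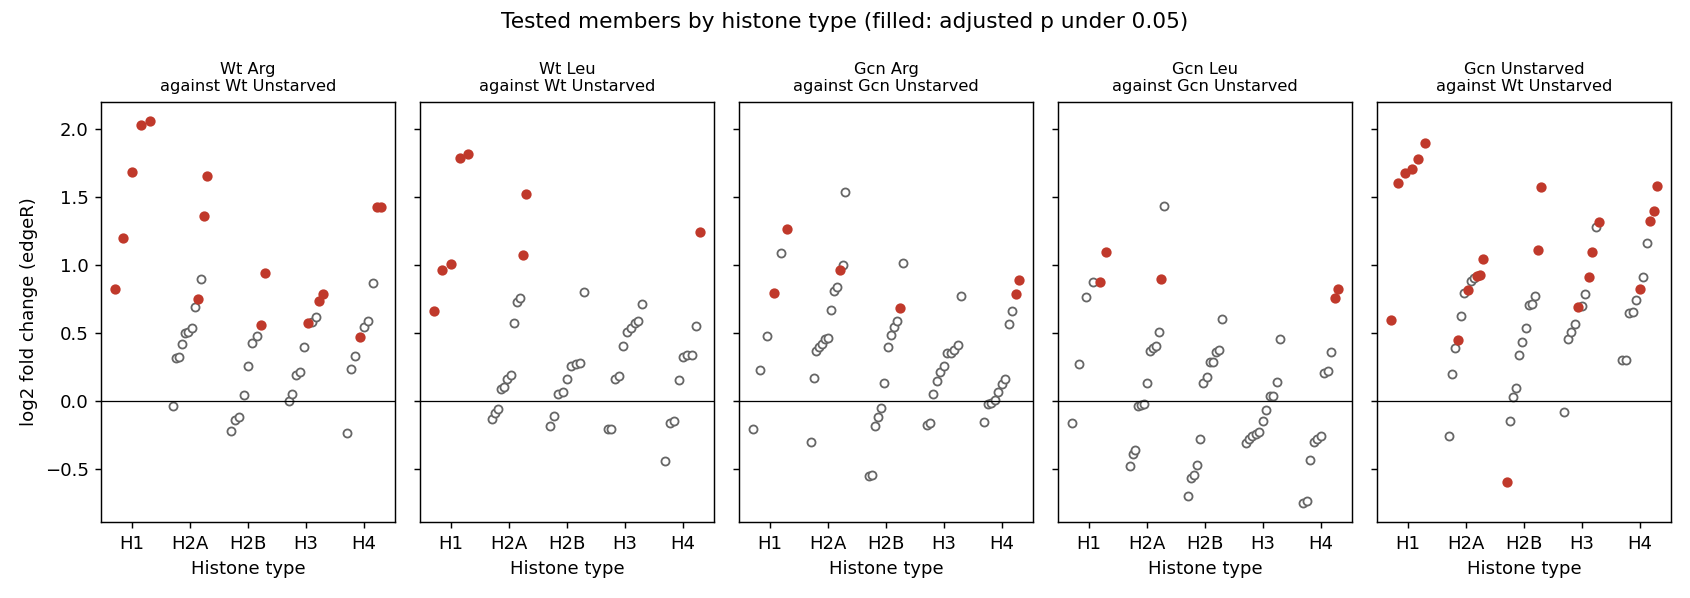
Log2 fold change (edgeR, vertical axis) of each tested member by histone type in 5 comparisons; filled points passed an adjusted p under 0.05 and open points did not. All 5 tested H1 genes are filled in both Wt starvation panels, 2 of 6 in each Gcn starvation panel and 6 of 6 between the unstarved genotypes.

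Leucine starvation of wild-type cells raised the linker histone genes and 3 core histone genes. Of 45 members 8 rose and 0 fell (17.8%), where 29.6% of all genes were called, 15.5% higher and 14.1% lower. The share of members that rose was thus close to that of all genes. All 5 tested H1 genes rose, with Hist1h2ab, Hist1h2af and Hist1h4j. Of these 8, Hist1h1b and Hist1h1e were under the filter in some Unstarved library and passed only with the help of starved libraries. No H2B or H3 gene passed, and at an unadjusted p under 0.05 there was 1 of each. The median log2 fold change was 0.28 over members and 0.01 over all genes, and 10 members had Leu libraries all above the Unstarved ones (20.9% of all genes) and 1 had them all below (20.2%). Both Wt starvation comparisons use the same 3 Unstarved libraries.

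Hist1h1c reached 11.1, 12.9 and 11.2 CPM in Wt Leu (log2 0.66 ± 0.12, adjusted p = 0.000557), above every Unstarved library. Hist1h2af reached 1.74, 2.20 and 1.90 CPM (log2 1.52 ± 0.25, adjusted p = 0.000274). Hist1h1e reached 2.25, 1.29 and 1.07 CPM (log2 1.81 ± 0.41, adjusted p = 0.00364), and Hist1h1d changed by 1.79 ± 0.47. Hist1h4i (0.32 ± 0.13, adjusted p = 0.0619), Hist1h3g (0.59 ± 0.22, adjusted p = 0.056), Hist1h2ae (0.11 ± 0.15) and Hist1h2bc (0.17 ± 0.17) did not pass. Their Wt Leu levels of 3.99, 4.75 and 4.27 CPM for Hist1h2ae and 6.66, 8.95 and 6.12 CPM for Hist1h2bc overlapped the Unstarved ones, with Wt Leu 2 of Hist1h2bc above all 3 of them. The count fell to 5 without Wt Unstarved 1 or without Wt Unstarved 2, where Hist1h1a, Hist1h1b and Hist1h1d lost their calls. The first pair of these also lost it without Wt Leu 1 or Wt Leu 3 (adjusted p up to 0.188), and Hist1h2ab and Hist1h4j lost it without Wt Leu 2 (adjusted p up to 0.0669). With all 18 libraries in one fit Hist1h1a (adjusted p = 0.262) and Hist1h1b (0.0825) were not called, nor was Hist1h1b with DESeq2.

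Gm42418 and the H1 sum can be set side by side within replicate numbers. In Wt replicates 1 and 2, Gm42418 was lower in Unstarved (2266 and 4403 CPM) than in Arg (13745 and 11561) and Leu (12754 and 8986). In replicate 3 it was higher in Unstarved (12356) than in Arg (7075) and Leu (6110). The H1 sum in replicate 3 was 12.9 CPM in Unstarved, 23.0 in Arg and 17.6 in Leu. In Gcn cells Gm42418 was lower without arginine or leucine (means of 17869 and 15451 CPM) than in Unstarved (26842), and the mean H1 sum was higher. Gm42418 was not called in any of the 4 starvation comparisons, and its part in the histone result was not tested.

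**Figure D4:**
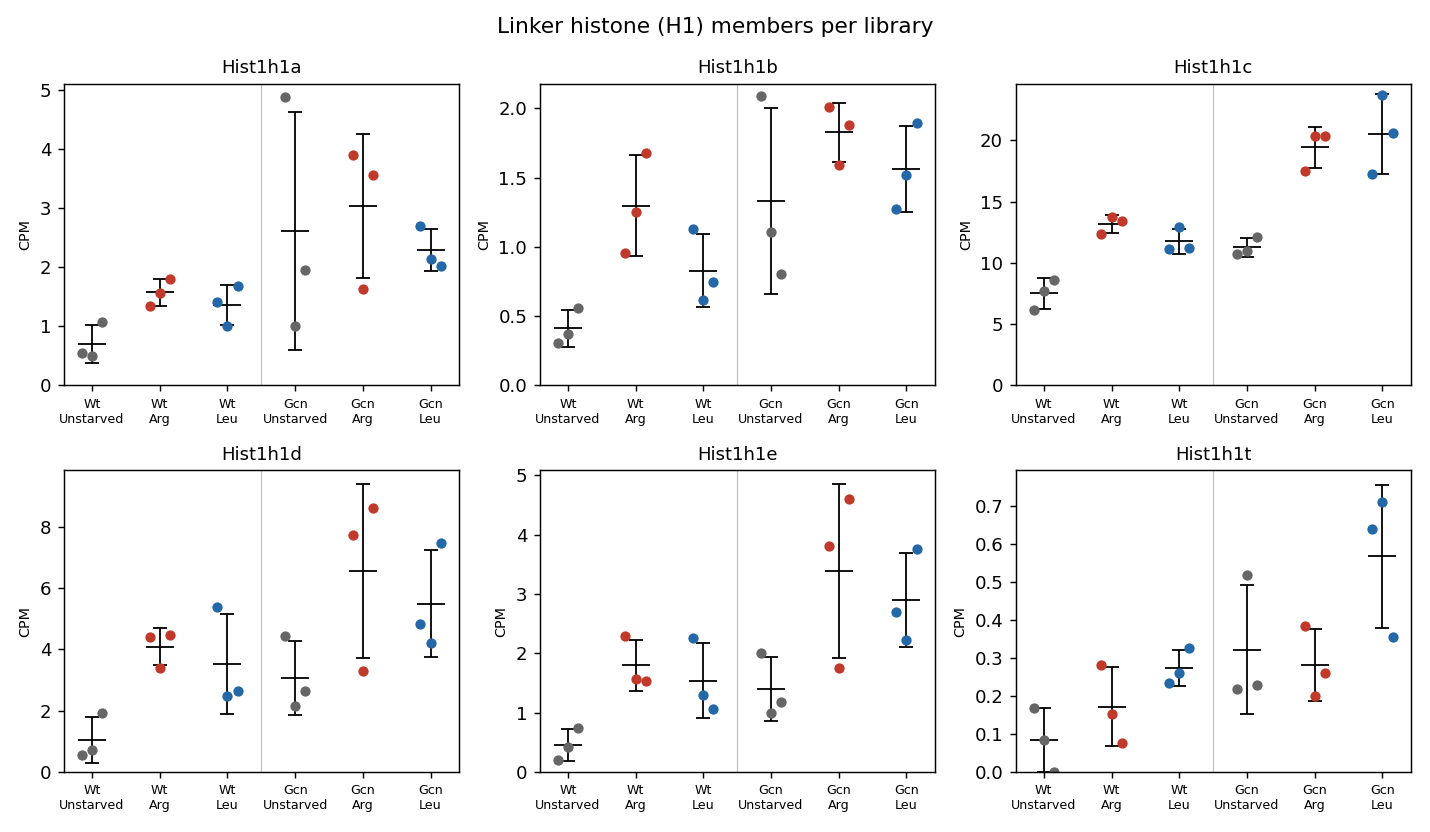
CPM (vertical axes, starting at 0) of the 6 H1 genes in the 6 groups; points are single libraries and black bars the mean ± SD (n = 3). Hist1h1c separates starved from unstarved libraries in both genotypes, while Hist1h1a and Hist1h1d spread widely in Gcn cells.

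In cells lacking GCN2, arginine starvation raised 2 linker and 4 core histone genes. Of 53 tested 6 rose and 0 fell (11.3%), where 28.0% of all 16369 genes tested were called, 14.3% higher and 13.7% lower. In this fit without a block, a smaller share of members than of all genes was thus called higher. The 6 were the H1 genes Hist1h1c and Hist1h1e, Hist1h2af, Hist1h2bh, Hist1h4i and Hist1h4j. With the replicate number as a block, which the pairing of the libraries allows, 14 of the 53 members rose and 0 fell. Among the 16369 genes, 3643 rose and 3959 fell with the block. The share that rose was then larger among members than among all genes, so the order of these shares depended on the block. The median log2 fold change was 0.37 over members and -0.01 over all genes, 12 members did not overlap (20.4% of all genes), and all 6 called genes were above the filter in each Unstarved library. Scaling by library size alone called 10 members, and moved the split of all calls from 2339 higher and 2244 lower to 3449 and 1397 with the median of all genes at 0.11.

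Hist1h1c went from 10.7, 10.9 and 12.1 CPM in Gcn Unstarved to 17.5, 20.4 and 20.4 in Gcn Arg (log2 0.80 ± 0.13, adjusted p = 0.000561). Hist1h4i went from 8.23, 8.94 and 10.8 CPM to 13.3, 19.3 and 19.0 (log2 0.89 ± 0.20, adjusted p = 0.00532). Hist1h2af went from 1.61, 1.18 and 1.45 CPM to 2.73, 2.43 and 3.11 (log2 0.96 ± 0.22, adjusted p = 0.00519). In all 3 genes the starved libraries lay above the unstarved ones. Hist1h1e had a log2 fold change of 1.27 ± 0.37 (adjusted p = 0.0246). Hist1h2ae (0.47 ± 0.17, adjusted p = 0.0548), Hist1h2bc (0.40 ± 0.22) and Hist1h3g (0.26 ± 0.18) did not pass. Hist1h2ae stood at 5.27, 4.99 and 6.37 CPM in Gcn Unstarved and 6.15, 8.21 and 8.55 in Gcn Arg, with overlap.

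The remaining H1 genes were not called in Gcn Arg. Hist1h1b had a log2 fold change of 0.48 ± 0.31, Hist1h1a one of 0.23 ± 0.51 and Hist1h1d one of 1.09 ± 0.40 (adjusted p = 0.0718), and Hist1h1t one of -0.21 ± 0.51. No test compared these genes with Hist1h1c. Hist1h1a stood at 4.87, 0.998 and 1.95 CPM in Gcn Unstarved and 3.89, 1.63 and 3.56 in Gcn Arg, so libraries of 1 group differed more than the groups. Without Gcn Unstarved 1 the count of called members was 10. Without the 3 Gcn libraries numbered 1 it was 11, of which 4 were among the 6. Hist1h1e lost its call without any of 4 libraries, Hist1h2bh without any of the 6, and Hist1h4j without Gcn Arg 2 or Gcn Unstarved 3 (adjusted p up to 0.136).

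Leucine starvation in cells lacking GCN2 raised 5 of 53 members and lowered 0 (9.43%), where 21.8% of all genes were called, 11.7% higher and 10.0% lower. The share of members that rose was thus below that of all genes. With the replicate block, which the pairing allows, 10 members were called, 9 higher and 1 lower. Among all 16369 genes tested, 3348 were then higher and 3303 lower. Hist1h1c reached 17.2, 23.7 and 20.6 CPM (log2 0.88 ± 0.13, adjusted p = 0.000382), Hist1h4i 12.5, 20.4 and 16.2 CPM (log2 0.82 ± 0.20, adjusted p = 0.0102) and Hist1h2af 2.37, 2.16 and 3.21 CPM (log2 0.89 ± 0.21, adjusted p = 0.00864). Each lay above all Gcn Unstarved libraries. Hist1h4j (0.76 ± 0.22) and Hist1h1e (1.09 ± 0.36, adjusted p = 0.0495) also rose. Hist1h2ae (-0.03 ± 0.17), Hist1h3g (-0.07 ± 0.17) and Hist1h2bc (0.29 ± 0.22) did not pass.

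The median log2 fold change of the Gcn Leu comparison was 0.04 over members and 0.00 over all genes, with type medians of 0.82 for H1, 0.14 for H2A, 0.15 for H2B, -0.14 for H3 and -0.25 for H4. 8 members did not overlap on the higher side, which held for 18.7% of all genes, and 2 on the lower side (18.3%). The count fell to 2 without Gcn Unstarved 2 and to 3 without Gcn Unstarved 3. Hist1h1e lost its call without any of 4 libraries and Hist1h4j without any of 5, and Hist1h2af reached an adjusted p of 0.0535 without Gcn Unstarved 2. Scaling by library size alone called 7 members, and moved all calls from 1920 higher and 1641 lower to 2609 and 1066. Of the 16 members that rose in Wt Arg, 5 (31.2%) were among the 6 of Gcn Arg (83.3%). Of the 8 of Wt Leu, 4 of the 8 (50%) were among the 5 of Gcn Leu (80%), and Hist1h1c, Hist1h1e, Hist1h2af and Hist1h4j stood in all 4 sets. The Arg and Leu sets of a genotype share their Unstarved libraries, so the 4 sets are not independent. The same overlap was not counted over all genes.

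**Figure D5:**
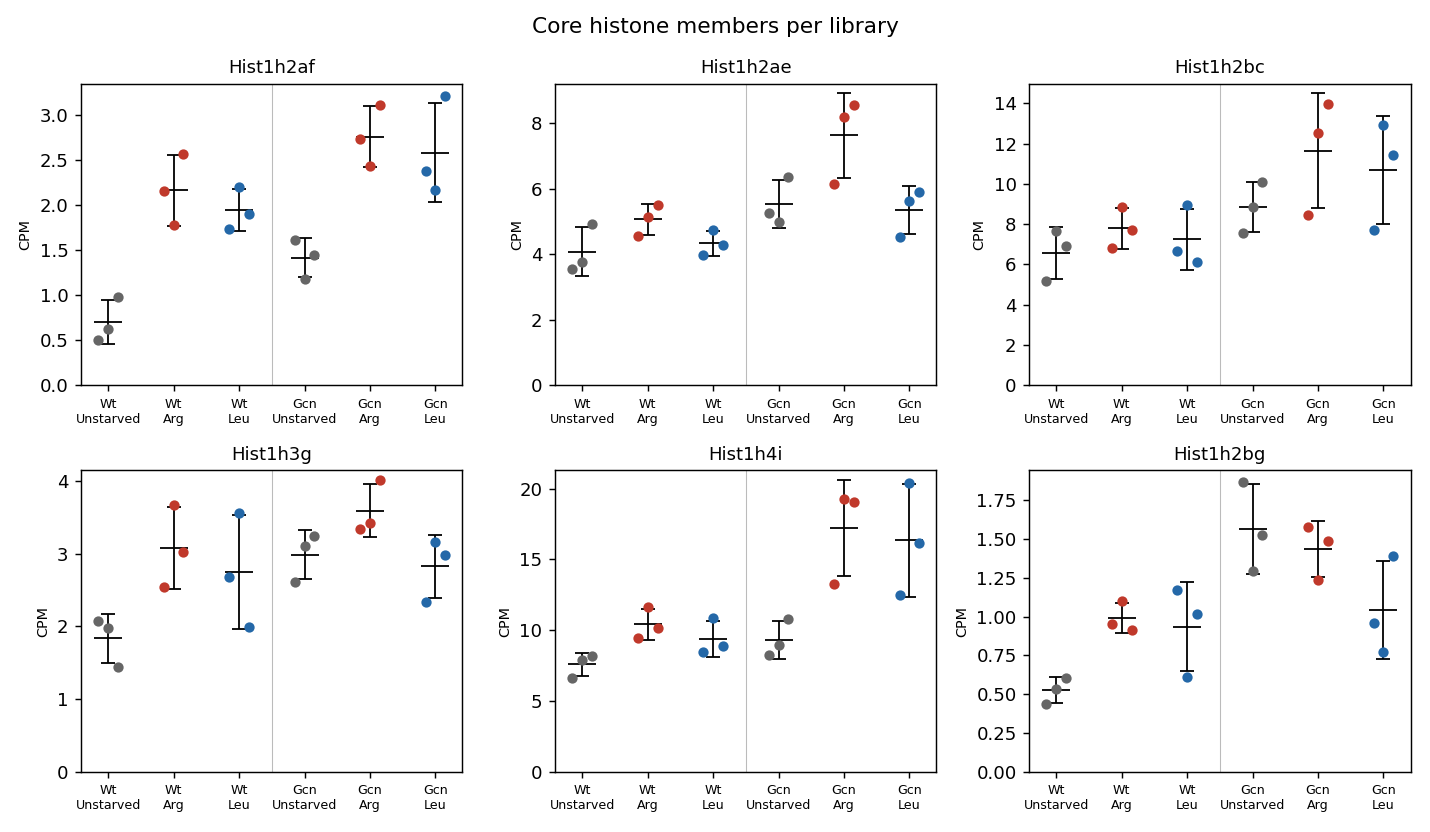
CPM (vertical axes, starting at 0) of 6 core histone genes in the 6 groups; points are single libraries and black bars the mean ± SD (n = 3). Hist1h2af and Hist1h4i lie higher in starved libraries of both genotypes, and the mean of Hist1h2bg is highest in Gcn Unstarved (1.29 to 1.87 CPM).

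The dependence of these changes on GCN2 was tested as the log2 fold change in Gcn less that in Wt. For arginine 0 of 52 members were called in edgeR, with 2 at an unadjusted p under 0.05 (Hist1h1b and Hist1h2bg), where 2.3% of all 16924 genes were called, 0.62% higher and 1.68% lower. For leucine 0 of 52 were called in edgeR, with 2 at an unadjusted p under 0.05 (Hist1h2bg and Hist1h3g), where 0.821% of all genes were called, 0.154% higher and 0.668% lower. DESeq2 also called 0 in each, but gave an adjusted p for only 5 members, so its count says little of the rest. The difference for Hist1h1c was -0.04 ± 0.18 for arginine and 0.21 ± 0.18 for leucine. For the other H1 genes it ran from -1.21 to -0.80 for arginine and from -1.13 to -0.73 for leucine, with SEs of 0.48 to 0.89, so a difference in their response was not resolved at this depth. Library size scaling moved all calls from 105 higher and 285 lower to 298 and 162 for arginine, and from 26 and 113 to 80 and 77 for leucine, and left the members at 0. With the replicate block the members called were 0 for arginine and 2 for leucine.

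Set directly against each other, leucine and arginine starvation differed in 1 called member per genotype. In Wt, Hist1h4k was the 1 member of 45 called (lower in Leu, log2 -0.87 ± 0.26, adjusted p = 0.0426), where 10.0% of all genes were called, 5.25% higher and 4.76% lower, and it lost its call without any of the 6 libraries. It stood at 0.988, 1.25 and 1.07 CPM in Wt Arg and at 0.516, 0.744 and 0.510 in Wt Leu. In Gcn, Hist1h4n was the 1 member of 53 called (lower in Leu, log2 -1.41 ± 0.34, adjusted p = 0.0198), where 8.52% of all genes were called, 4.64% higher and 3.88% lower. It stood at 0.897, 0.558 and 0.971 CPM in Gcn Arg and at 0.283, 0.323 and 0.278 in Gcn Leu. That call was lost without any of 5 libraries (adjusted p up to 0.0798), and with the replicate block of paired libraries 3 members were lower. Median differences were -0.21 in Wt and -0.28 in Gcn, against 0.00 for all genes, and in 37 of 45 and 46 of 53 members the estimate was lower in Leu. Library size scaling moved all Gcn calls here from 760 higher and 635 lower to 610 and 781, with the same number of members called.

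Between unstarved cells, 21 of 52 members were higher in Gcn and 1 was lower (42.3%), where 32.8% of all 16924 genes were called, 16.6% higher and 16.2% lower. All 6 H1 genes were higher, as were 5 of 12 H2A, 2 of 12 H2B, 4 of 11 H3 and 4 of 11 H4 genes, and the H2B gene Hist3h2ba was lower. The H1 sum was 7.88, 9.77 and 12.9 CPM in Wt and 24.3, 16.7 and 18.9 in Gcn, without overlap. The median log2 fold change was 0.76 over members and 0.00 over all genes, and 25 members did not overlap on the higher side (22.2% of all genes). Genotype and the separate culture history of the lines cannot be told apart. 23 of the 52 members were under the filter in some Wt Unstarved library, and 7 of the 21 higher calls were among these. The 7 were Hist1h1b, Hist1h1e, Hist1h1t, Hist1h2bk, Hist1h3b, Hist1h4f and Hist1h4k. They passed only with the help of other libraries.

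Hist1h2bg, an H2B gene, stood at 0.436, 0.536 and 0.605 CPM in Wt Unstarved and 1.87, 1.29 and 1.53 in Gcn Unstarved (log2 1.58 ± 0.28, adjusted p = 0.000179). Hist1h4h stood at 0.503, 0.536 and 0.559 CPM in Wt and 1.52, 1.22 and 1.49 in Gcn (log2 1.40 ± 0.28, adjusted p = 0.000471). Hist1h1b was 1.70 ± 0.37 higher on the log2 scale (adjusted p = 0.00121) and Hist1h1c 0.60 ± 0.13 (adjusted p = 0.00131). None of these 4 overlapped between genotypes. Hist1h4i (0.31 ± 0.18, adjusted p = 0.204) and Hist1h2bc (0.44 ± 0.21, adjusted p = 0.131) did not pass, while Hist1h2ae (0.45 ± 0.16) and Hist1h3g (0.69 ± 0.21) were higher. Hist3h2ba fell from 2.55, 2.89 and 2.61 CPM to 1.87, 2.03 and 1.41 (log2 -0.59 ± 0.21, adjusted p = 0.0361), a call lost without any of 5 libraries (adjusted p up to 0.155) and with DESeq2 (0.0512).

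Single libraries weighed on the genotype comparison. The 22 calls became 10 without Wt Unstarved 1, 13 without Wt Unstarved 2, 12 without Gcn Unstarved 1 and 15 without Gcn Unstarved 3. Without the 3 Gcn libraries numbered 1 there were 17, of which 14 were among the 22, and the H1 ratio of group means was 1.75 in place of 1.96. Hist1h1e lost its call there (adjusted p = 0.127), as did Hist1h1d. Hist1h1a, with the largest log2 fold change, lost its call without Wt Unstarved 1 or Gcn Unstarved 1 (adjusted p up to 0.057). Nor was it called with only the unstarved groups in the fit (adjusted p = 0.111). It stood at 4.87, 0.998 and 1.95 CPM in Gcn Unstarved. Leaving out single libraries also cost the calls of Hist1h1d, Hist1h1e and Hist1h1t. Gcn Unstarved 1 was also the library with the most Gm42418 (41709 CPM) and the most Rn7sk, an abundant nuclear RNA without a poly(A) tail (10.8 CPM, against 2.1 and 2.7 in the other two). Between unstarved genotypes Gm42418 was 2.08 ± 0.63 higher on the log2 scale (adjusted p = 0.0232) and Rn7sk 3.61 ± 0.67 (adjusted p = 0.000825). The Gm42418 call was lost without any of 3 libraries (adjusted p up to 0.0923). It was also lost with only the unstarved groups in the fit and without the 3 Gcn libraries numbered 1 (adjusted p up to 0.139). The Rn7sk call was lost with only the unstarved groups in the fit (adjusted p = 0.0656). The part of both RNAs in the histone result was not tested. Hist1h1c, Hist1h1b, Hist1h2bg and Hist1h4h kept their calls under each of these omissions of libraries. Hist1h1b held 9, 9 and 12 counts in the Wt Unstarved libraries and passed the filter only with the help of other libraries.

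Other RNAs without poly(A) tails were measured beside the histones. Rn7sk was not called in any of the 4 starvation comparisons, with log2 fold changes of 0.73 ± 0.36 and -0.02 ± 0.42 for arginine and leucine in Wt, and -1.97 ± 0.73 and -2.10 ± 0.69 in Gcn. Summed small nucleolar and Cajal body RNAs averaged 23.9 CPM unstarved, 14.3 without arginine and 16.2 without leucine in Wt, and 24.1, 12.2 and 15.5 CPM in Gcn. The mean sum of all histone members was higher in each starved group than in its unstarved control. Of 12 such RNAs tested in Wt, 0 rose and 2 fell with arginine and 0 rose and 1 fell with leucine starvation, and of 10 in Gcn, 0 rose and 2 fell in each. Of 20 factors of poly(A) tailing and exosome decay, 2 rose and 2 fell in Wt Arg, 4 and 3 in Wt Leu, 0 and 7 in Gcn Arg and 3 and 5 in Gcn Leu. Zc3h18, which links the cap-binding complex to RNA decay, fell in both arginine comparisons (log2 -0.61 ± 0.08 in Wt and -0.55 ± 0.10 in Gcn). The part of RNA selection in the histone values was not tested.

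Called members were found in each class of gene model. In Wt Arg 3 of 13 tested members whose model ends at the stem-loop rose, 7 of 19 that run past it and 6 of 13 without it, with median log2 fold changes of 0.43, 0.51 and 0.56. In Wt Leu 1, 4 and 3 rose, with medians of 0.28, 0.32 and 0.19. In Gcn Arg 0 of 15, 5 of 21 and 1 of 17 rose (medians 0.26, 0.42 and 0.40), and in Gcn Leu 0, 4 and 1 (medians -0.14, 0.36 and 0.14). Between unstarved genotypes 6 of 15, 9 of 21 and 6 of 16 were higher (medians 0.71, 0.72 and 0.80). Among all genes tested, the shares called higher were 20.9%, 15.5%, 14.3%, 11.7% and 16.6%, with the comparisons in the same order. Some class shares lay below these values and others above. Differences between these classes, or between a class and all genes, were not tested.

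The machinery that makes histone mRNA moved in both directions. Of 25 tested genes for histone transcription and 3' processing, 9 rose and 8 fell in Wt Arg, 4 and 6 in Wt Leu, 3 and 4 in Gcn Arg, 3 and 3 in Gcn Leu, and 4 and 2 were higher and lower between the unstarved genotypes. Slbp, which encodes the stem-loop binding protein, averaged 174 CPM in Wt Unstarved, 183 in Wt Arg and 174 in Wt Leu. The Gcn means were 172 CPM unstarved, 205 without arginine and 218 without leucine. Among the 4 starvation comparisons Slbp was called only in Gcn Leu (log2 0.36 ± 0.10, adjusted p = 0.0193), a call lost without any of 4 libraries. Npat, the cyclin E-CDK2 substrate that activates histone transcription, rose in Wt Arg (0.25 ± 0.09, adjusted p = 0.0357) but was not called with the replicate block of paired libraries (alone or with a GC correction), with all 18 libraries in one fit or without any of 5 libraries (adjusted p up to 0.548). Casp8ap2, the NPAT-associated factor FLASH, rose in Wt Arg (0.48 ± 0.13) but was not called with the block (alone or with the GC correction), with all 18 libraries in one fit or without Wt Unstarved 3 (adjusted p up to 0.111), and Yy1, a transcription factor, fell (-0.49 ± 0.06). Lsm10, a U7 snRNP subunit, rose in Gcn Leu (0.58 ± 0.11) and in Wt Leu (0.38 ± 0.09).

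Histone variants listed as replication-independent, which are typically expressed also outside S phase from polyadenylated mRNAs, split by gene. H2afx is in this list, although it carries the stem-loop pattern. Of 11 tested, 2 rose and 3 fell in Wt Arg, 3 and 1 in Wt Leu, 4 and 0 in Gcn Arg, 3 and 0 in Gcn Leu, and 0 and 4 between the unstarved genotypes. The shares of all genes called higher are those given above for the classes of gene model. H1f0, the linker histone variant of slowly dividing cells, rose in all 4 starvation comparisons, from 46.5 to 71.8 and 78.0 CPM in Wt means and from 39.5 to 71.9 and 101 CPM in Gcn means. Its log2 fold changes were 0.63 ± 0.10, 0.75 ± 0.10, 0.87 ± 0.10 and 1.36 ± 0.10 (adjusted p at most 0.000123), for Wt without arginine, Wt without leucine and the same pair in Gcn. H1f0 is no member of the clusters, and it was not called between the unstarved genotypes. H2afj, an H2A variant gene, fell in Wt Arg (-0.55 ± 0.06).

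DNA replication genes, which are active in the same cell cycle phase, were counted in the same way. Of 30 tested, 14 rose and 5 fell in Wt Arg, 8 and 5 in Wt Leu, 7 and 2 in Gcn Arg and 6 and 2 in Gcn Leu, and 6 and 0 were higher and lower between the unstarved genotypes. In Leu against Arg, 4 replication genes were higher and 7 lower in Wt, and 0 and 2 in Gcn. Over all genes, 5.25% were higher and 4.76% lower there in Wt, and 4.64% and 3.88% in Gcn. Pole, the catalytic subunit of polymerase epsilon, rose in Wt Arg (0.56 ± 0.06), and Rfc3, a clamp loader subunit, fell in Wt Leu (-0.69 ± 0.06) and Gcn Leu (-0.93 ± 0.08). Pola1, a subunit of polymerase alpha, was 0.95 ± 0.12 higher in Gcn than in Wt when unstarved. Of 20 histone chaperones, 7 rose and 4 fell in Wt Arg, 4 and 3 in Wt Leu, 2 and 4 in Gcn Arg, 1 and 3 in Gcn Leu, and 4 and 0 were higher and lower between genotypes. The part of the cell cycle in the histone values was not tested.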

How the data were processed

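Poly(A)-selected RNA of 18 libraries was read as 2 reads of 43 bases per fragment, per the labels' protocols. The submitters' processing notes name STAR 2.7.4a, HTSeq, FastQC 0.11.7 and build GRCm38. The authors deposited raw whole-number counts per Ensembl gene, 1 table per genotype. The sources used here do not give the annotation, the strand setting or the treatment of multiply mapped reads. Of 55471 identifiers 55230 matched GENCODE vM21. Totals of 14.8 to 38.8 M counts (M, mega) set the precision, which is low for members near 1 CPM.

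Counts were tested with edgeR 4.0.16 (R 4.3.3): filterByExpr with a minimum count of 10, TMM scaling, robust quasi-likelihood F tests and Benjamini-Hochberg adjustment over all genes tested, with no replicate block. The single-genotype comparisons used 9 libraries, and the genotype comparison and interactions all 18. SEs were obtained from the fold change and its F statistic. Same-numbered libraries deviated together within each genotype, with r from 0.111 to 0.523 in all comparisons but Wt Leu against Wt Unstarved. There r was 0.23, 0.054 and 0.203 for numbers 1, 2 and 3. Alternatives were DESeq2 1.42.0, its size factors, library size only, no filter, the block with and without a GC correction, other groups in the fit and omitted libraries. The test was tried on simulated counts.

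Members and gene lists were chosen with earlier results of these data known. Values in every library are given for the highest member of each type and the 3 members with the smallest p in each starvation and genotype comparison. Up to 4 genes per list and comparison were named by fold change, with Slbp and Npat fixed by name. Stem-loops were read from vM21 transcripts and promoters from RefSeq (GRCm38.p6).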

Additional observations from a re-analysis of the deposited data

How the results depend on the processing

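Low counts and shared sequence limit single members, most of which held under 1 CPM. For the number of members called, the range on leaving out 1 library was 13 to 14 in Wt Arg, 5 to 8 in Wt Leu, 4 to 10 in Gcn Arg, 2 to 6 in Gcn Leu, 10 to 21 between the unstarved genotypes, 0 to 0 in Wt Leu against Arg, 0 to 1 in Gcn Leu against Arg, and 0 to 0 and 0 to 1 for the arginine and leucine dependence on GCN2. With the replicate block, and then with the block and a GC correction together, the pairing gave 14 and 21 in Gcn Arg, 10 and 10 in Gcn Leu, 3 and 5 in Gcn Leu against Arg, and 2 and 3 for leucine dependence. The block with GC correction gave 2 in Wt Leu against Arg and 1 for arginine dependence. In Wt Leu, where same-numbered libraries deviated together at r = 0.23, 0.054 and 0.203, the block gave 12 in place of 8. Every one of the 9 Wt libraries correlated best with its own number. The block gave 19 in Wt Arg and 27 between the unstarved genotypes. Calls among all genes also rose with the block, from 6608 to 8094 in Wt Arg and from 4772 to 6555 in Wt Leu. They rose from 4583 to 7602 in Gcn Arg and from 3561 to 6651 in Gcn Leu. Gcn Arg had 10 calls with library size only and 11 without the 3 Gcn libraries numbered 1. Wt Leu against Arg had 0 with no filter, with other groups in the fit and with DESeq2, which gave an adjusted p for only 7 members there. Gcn Leu against Arg had 2 with other groups and 0 without the 3 Gcn libraries numbered 1. The cause was not tested.

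Among values of single named genes under an alternative, 1192 kept direction and call, 54 gained a call, 183 lost it and 19 changed sign. Those that changed sign were uncalled values near 0. Slbp turned to -0.0322 in Wt Arg with the block and GC correction. In Wt Leu, Slbp turned to -0.0036 with DESeq2 size factors, -0.0069 with DESeq2, -0.0754 with the block and GC correction, and below 0 without 3 of the 6 libraries (range leaving out each, -0.0468 to 0.044). Between genotypes it turned to 0.0261 without the 3 Gcn libraries numbered 1 and above 0 without 2 of the 6 libraries (range leaving out each, -0.0957 to 0.0322). On leaving out each library, Hist1h2bc in Wt Leu ranged from -0.0315 (without Wt Leu 2) to 0.2924, and Npat in Gcn Arg from -0.2636 to 0.0395 (without Gcn Arg 2). In Gcn Leu, Hist1h2ae turned to 0.0431 with library size only, 0.0428 without the Gcn libraries numbered 1, and ranged from -0.1319 to 0.0784 on leaving out each library. Hist1h3g turned there to 0.0112 with library size only, 0.0214 with the block and GC correction and ranged from -0.1691 to 0.0554 on leaving out each library. The cause was not tested.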

Other observations

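3 members are known for expression in the testis: Hist1h1t (H1t), Hist1h2aa and Hist1h2ba. Hist1h1t held 139 counts over the 18 libraries, at most 22 in a library, and Hist1h2aa and Hist1h2ba held 37 and 43 counts. Among germ cell markers Ddx4 averaged 22.1 to 31.8 CPM per group, Prm1, Prm2 and Acrv1 had no count, and Tnp1 and Tnp2 averaged at most 0.012 and 0.025 CPM per group. Hist1h1t was higher in Gcn than in Wt when unstarved (log2 1.78 ± 0.64, adjusted p = 0.037), with 5, 2 and 0 counts against 5, 14 and 6, and the call was lost with DESeq2 (adjusted p = 0.0579) and without any of 3 libraries (adjusted p up to 0.241).

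The tested genes outside the clusters whose log2 CPM followed the median member profile most closely, centred within genotype over the 18 libraries with a pseudocount of 0.5 CPM, were Chrna7 (Pearson r = 0.873), N4bp2l1 (0.867), Lpxn (0.865), Zfp286 (0.863) and Zfp626 (0.853). These correlations describe libraries that share scaling and depth, and no p is given.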
